A study of Mus musculus with 20 samples.

Results

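Microglia isolated from GL261 tumours were compared with microglia isolated from tumours of a genetically engineered mouse model (GEMM). The comparison used 6 of the 20 RNA-seq libraries of the study: 3 from GL261 tumours (80766, 80767 and 80769) and 3 from GEMM tumours (68702, BB30101 and BB30105). The libraries of each group were taken by their labels, and the comparison was chosen with earlier results of these data known. Each library carries a number that a macrophage library of the same tumour model also carries. The study sorted tumour-associated microglia (MG) and bone marrow-derived macrophages (BMDM) from both brain tumour models, with cells from normal brain as a reference. In the GEMM, DF1 chicken cells producing the viruses RCAS-PDGFB-HA, which delivers the growth factor PDGFB, and RCAS:shP53, a knockdown of p53, were injected into Flt3:Cre Rosa26:mTmG mice on C57BL/6 at 5 to 6 weeks of age. GL261 is a transplantable mouse glioma cell line of C57BL/6 origin. The labels of the GL261 samples give strain C57BL/6 and carry the same protocol text, which describes only the RCAS injections, and the making of the GL261 tumours is thus not stated there. In the mTmG reporter, Flt3-driven Cre switches descendants of blood stem cells from tdTomato to GFP, whereas microglia, which arise from yolk sac progenitors, keep tdTomato. By the protocol text, microglia among CD45+ CD11b+ cells without Ly6C and Ly6G were therefore sorted as TdTomato+ and GFP-, and BMDM as GFP+ and TdTomato-. Before the sort, tumours were dissected out, dissociated and cleared of red cells and myelin. A limit of this gate is that a macrophage in which Cre had not acted would also be GFP- and TdTomato+. Whether the GL261 mice carried the reporter could not be worked out from their labels. Any difference in genotype or sort between the groups compared thus cannot be told apart from the tumour model. The normal microglia came from brains of C57BL/6 mice without tumours (3 libraries).

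Microglia are the resident macrophages of the brain. They depend on CSF1R signalling, survey the tissue through purinergic receptors such as P2RY12, and lose this homeostatic program when they are activated, with a rise in lipid-handling and lysosomal genes such as Apoe and Lpl. Interferon-gamma, released mainly by T cells and NK cells, acts through its receptor to induce the immunity-related GTPases and guanylate-binding proteins, which attack vacuoles holding microbes, together with chemokines and antigen presentation. Cholesterol taken up by macrophages is exported through ABCA1 and ABCG1 to apolipoprotein E, or made anew under the transcription factor SREBP2 when cell cholesterol is low.

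The libraries held 23064781, 36297826 and 25150702 counts in GEMM microglia and 19874830, 18113450 and 20934656 in GL261 microglia, given here and below in the order of the library numbers above. The microglial label was checked first. P2ry12, the purinergic receptor of surveying microglia, stood at 1916, 1053 and 2239 CPM (counts scaled to a common library size, by TMM for single genes throughout) in GEMM microglia and at 642, 574 and 139 in GL261 microglia, against 6179.7 ± 528 (SD, n = 3) in normal microglia. Tmem119, a microglial surface marker, was at 1005, 631 and 2022 CPM in GEMM microglia and 1239.5, 1272 and 196 in GL261 microglia, and did not pass the test (log2 difference -0.43 ± 0.65, adjusted p = 0.641). Sall1, a transcription factor of microglial identity, was at 231, 117 and 224 CPM against 135, 97.1 and 28.2 (adjusted p = 0.12). All 6 libraries thus held these markers, and for each of the 3 markers library 80769 was the lowest. BMDM held them too. P2ry12 was at 320.8, 166.5 and 310.5 CPM in GEMM BMDM and 53.3, 52.0 and 73.9 in GL261 BMDM. Tmem119 was at 312.3, 103.4 and 315.6 and at 145.5, 374.3 and 42.3 CPM, and Sall1 at 5.89, 5.35 and 30.5 and at 0.50, 0.98 and 1.1. Library 80769 thus lay below every GEMM BMDM library for P2ry12, and below some BMDM libraries for Tmem119 and Sall1. Ly6c2, which the gate was meant to remove, was at 0.788, 0.233 and 1.42 CPM in GEMM and 3.64, 0.840 and 2.73 CPM in GL261 microglia. It was called higher in GL261 microglia under TMM. The call was lost without library 68702, BB30101, 80766 or 80769 (adjusted p = 0.106, 0.171, 0.165 and 0.139 in turn). Ccr2, a monocyte receptor, was at 10.9, 20.2 and 6.51 CPM in GEMM microglia and 4.20, 6.28 and 18.3 in GL261 microglia, below its 228, 328 and 321 and 239, 89.3 and 126 CPM in the GEMM and GL261 BMDM of the same animal numbers. Without library 80769 it was called lower in GL261 microglia (log2 difference -1.35, adjusted p = 0.0393). Itga4, an integrin that is low in microglia and high in BMDM, was higher in GL261 microglia, at 14.7, 16.6 and 30.3 CPM against 5.22, 8.74 and 3.32 (log2 difference 1.82 ± 0.45, adjusted p = 0.00445), but remained under the 87.6, 82.9 and 72.0 CPM of GL261 BMDM.

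GL261 microglia libraries carried less leukocyte RNA relative to the total count than GEMM microglia libraries. The geometric mean of 16 genes expressed by all leukocytes, among them Ptprc (CD45), was 454, 396 and 458 CPM of the total count in GEMM microglia and 365, 313 and 175 in GL261 microglia, against 441 to 451 in normal microglia. A set of 33 genes was chosen as under 1 CPM in every library outside the GL261 tumours and averaging 20 CPM or more in GL261 microglia, so their difference from GEMM microglia follows from the choice. Their sum was 999, 1769.6 and 2979.7 CPM in GL261 microglia, 344, 892 and 699.8 in GL261 BMDM and 5.98, 9.12 and 4.29 in GEMM microglia, so library 80769 had the lowest leukocyte level and the highest level of these genes. The 8 markers of oligodendrocyte precursors or glioma cells summed to 564, 744 and 1232 CPM in GL261 and 184, 239 and 152 CPM in GEMM microglia. Among them Sox10 was at 102, 142 and 175 CPM in GL261 microglia against 11.7, 16.3 and 8.90 in GEMM microglia, and Pdgfra, a receptor of the PDGF family, at 9.43, 7.83 and 20.3 against 49.3, 49.3 and 37.6. Oligodendrocyte markers summed to 386 to 672 CPM against 144 to 166, astrocyte markers to 237 to 468 against 121 to 176, and T cell markers to 14.6 to 24.5 against 2.21 to 9.86. Of the 7 T cell markers tested only Lck, a kinase of the T cell receptor, was called, at 5.70, 9.68 and 11.6 CPM in GL261 microglia and 0.148, 1.46 and 0.708 in GEMM microglia. Markers of border-associated macrophages summed to 306, 314 and 1342 CPM in GL261 microglia, with library 80769 alone above the 272 to 397 CPM of GEMM microglia, and red cell markers to 33.9, 2296 and 0.621 CPM, with library 80767 alone high. The 8 microglia markers summed to 9871, 8544 and 2902 CPM in GL261 microglia, 18621, 13994 and 21077 in GEMM microglia and 32464 to 36187 in normal microglia. They summed to 3339 to 6449 CPM in GEMM BMDM, all above library 80769, and to 799 to 1891 CPM in GL261 BMDM. Ddx3y, a gene of the Y chromosome chosen after its values were seen, was at 80.0, 87.1 and 36.3 CPM in GL261 microglia and 125, 136 and 125 in GEMM microglia. How far RNA of other cells contributes to the differences below was not tested, and in these bulk libraries fewer cells of a type and less RNA per cell cannot be told apart. Differences are given under 2 scalings: the trimmed mean of M values (TMM), and a leukocyte scaling, chosen after these levels were seen, in which library sizes follow the 16 leukocyte genes.

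**Figure D1:**
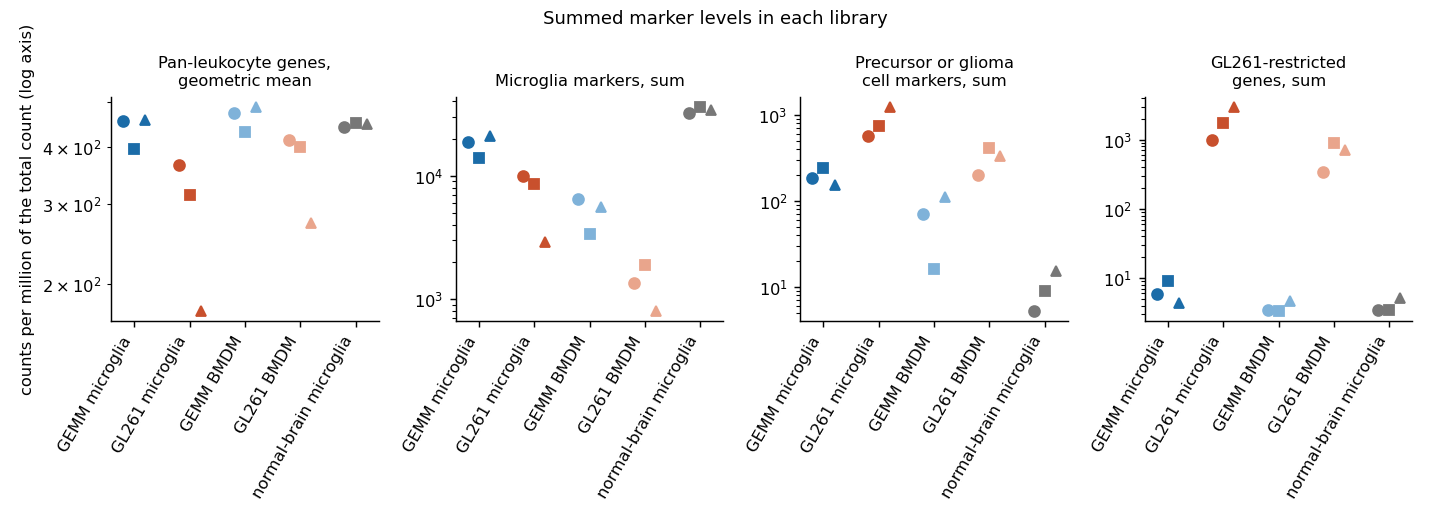
Leukocyte level (geometric mean of 16 genes) and summed markers in CPM of the total count, on log axes, for each microglia and BMDM library; circles, squares and triangles are the libraries of a group in number order. The 3 GL261 microglia libraries sit at 365, 313 and 175 CPM for the leukocyte genes, below the 396 to 458 CPM of GEMM microglia.

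Of 15363 genes tested with edgeR's quasi-likelihood test (Benjamini-Hochberg adjusted p under 0.05), 2892 (18.8%) were higher and 2383 (15.5%) lower in GL261 microglia under TMM scaling. Values of the 3 libraries of each group did not overlap for 3816 genes (24.8%) in the higher and 3388 genes (22.1%) in the lower direction. Under leukocyte scaling the median gene lay at a log2 difference of 1.24, against 0.04 under TMM, and 10090 genes (65.7%) were higher and 270 (1.76%) lower. All 2892 genes called higher under TMM (18.8% of those tested) were also called higher under leukocyte scaling. This follows from its construction, since leukocyte scaling raises every gene of the GL261 microglia libraries against TMM. Only 270 of the 2383 lower genes stayed lower (1.76% of those tested), and 502 of the 2383 were called higher. Without library 80769, 1888 genes were higher and 2379 lower under TMM, and 1823 of the 2892 and 2002 of the 2383 genes kept their calls. The groups share no animal number, and nothing in the labels says whether animals of a group shared a litter or day, so model and any such batch cannot be told apart. The p-values measure the spread between these libraries. Gene lists are described below by their counts, to be read against these percentages, and by their median log2 difference, to be read against 0.04 (TMM) or 1.24 (leukocyte scaling).

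**Figure D2:**
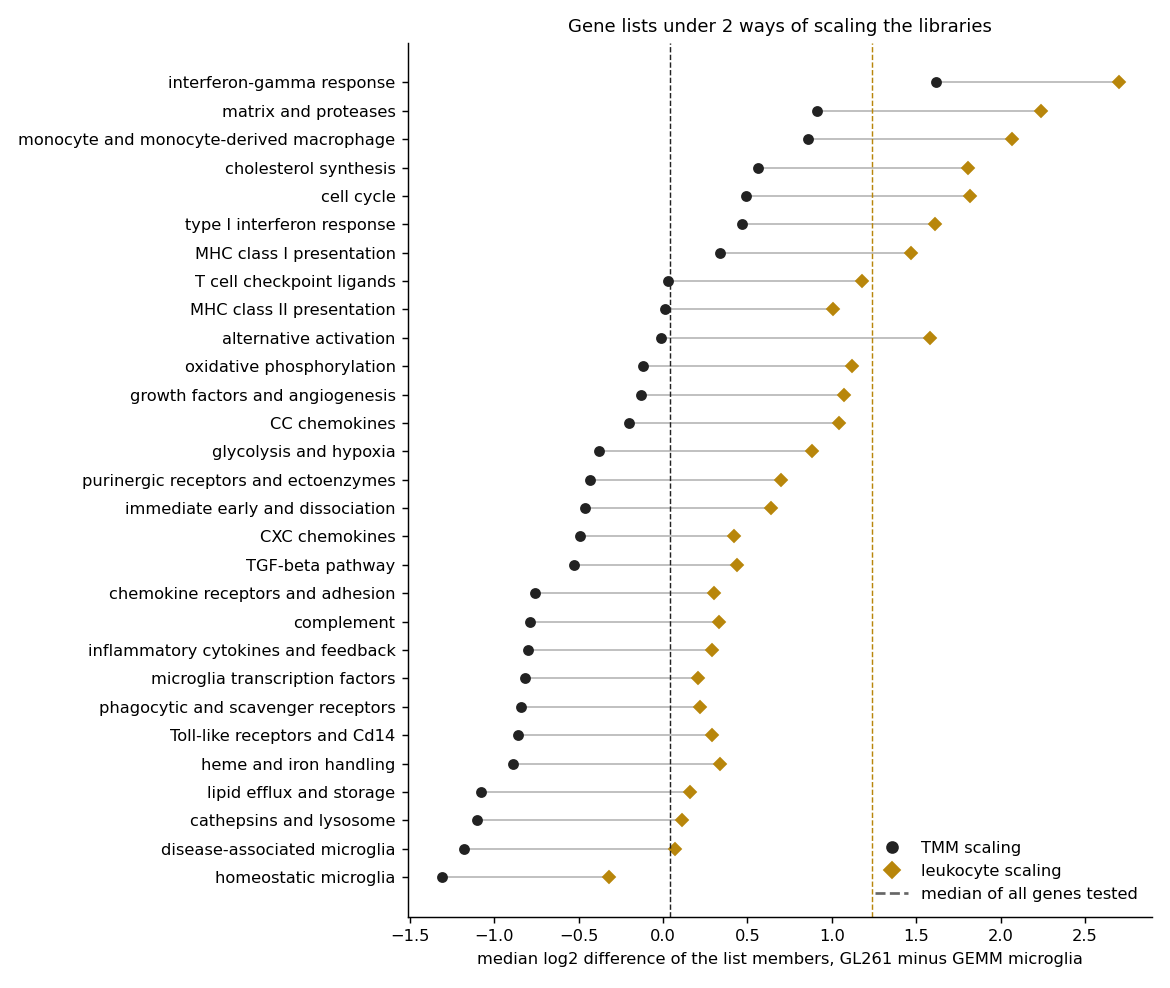
Median log2 difference, GL261 minus GEMM microglia, of the tested members of each gene list, under TMM (circles) and under leukocyte scaling (diamonds); the dashed lines mark the medians of all 15363 genes, 0.04 and 1.24. The interferon-gamma response list lies furthest to the right of the lists shown, at 1.62 under TMM and 2.70 under leukocyte scaling.

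Genes of the interferon-gamma response were higher in GL261 microglia. Among 25 tested members, 17 were higher and 2 lower under TMM and 21 higher and 0 lower under leukocyte scaling, with medians of 1.62 and 2.70. Without library 80769 the TMM counts were 18 higher and 2 lower. Irgm1, an immunity-related GTPase that regulates the other members of its family, was at 219, 144 and 224 CPM in GEMM microglia and 876, 869 and 884 in GL261 microglia, a 4.48-fold difference (log2 difference 2.17 ± 0.23, adjusted p = 5.36e-06). Ifi47, another GTPase of the family, was at 14.9, 13.8 and 22 CPM against 195, 161 and 132, a 9.65-fold difference (log2 difference 3.27 ± 0.32, adjusted p = 2.95e-06). Igtp (Irgm3) was at 95.5, 60.9 and 111 CPM against 505, 505 and 306 (log2 difference 2.30 ± 0.35, adjusted p = 9.91e-05). The groups did not overlap for any of these 3 genes, and the GL261 values of Irgm1 were close to each other, whereas those of Ifi47 and Igtp were lowest in library 80769.

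Tgtp1 and Tgtp2, T cell-specific GTPases encoded by near-identical neighbouring copies, were 5.95 ± 0.46 (adjusted p = 2.95e-07) and 2.09 ± 0.42 (adjusted p = 0.00114) higher on the log2 scale. Reads that fit both copies could be lost or assigned to either, so the single values are uncertain. The 2 summed to 22, 11.3 and 30.3 CPM in GEMM microglia and to 165.7, 145.3 and 103.6 CPM in GL261 microglia. Irgm2 and the guanylate-binding protein Gbp3 were higher by 1.54 ± 0.32 (adjusted p = 0.00126) and 1.43 ± 0.25 (adjusted p = 0.000355). Other guanylate-binding proteins were higher too. Gbp6 was at 23, 15.7 and 29.9 CPM in GEMM microglia and 185, 149 and 96.9 in GL261 microglia (log2 difference 2.65 ± 0.39, adjusted p = 8.55e-05), Gbp4 differed by 3.20 ± 0.48 (adjusted p = 9.4e-05) and Gbp2 by 1.72 ± 0.33 (adjusted p = 0.000819). Cxcl9, a chemokine that draws T cells through CXCR3, was at 4.28, 4.02 and 19.8 CPM against 128, 114 and 34.8 (log2 difference 3.31 ± 0.73, adjusted p = 0.00212). Every GL261 library was above every GEMM library for Gbp2, Gbp4, Gbp6 and Cxcl9. The 2 members called lower were the receptor chains: Ifngr1 fell from 572, 445 and 559.7 to 317, 356 and 152 CPM (log2 difference -0.93 ± 0.23, adjusted p = 0.00411) and Ifngr2 by 1.21 on the log2 scale, but neither was called under leukocyte scaling, where they differed by 0.12 and -0.14. Irf1, an interferon-induced transcription factor, and Cd274, which encodes the T cell inhibitory ligand PD-L1, were not called under TMM (log2 differences 0.84 and 0.46, adjusted p = 0.104 and 0.308). Without library 80769 Irf1 was called under TMM (1.09, adjusted p = 0.0348). Both were called higher under leukocyte scaling (1.85 and 1.44, adjusted p = 3.05e-05 and 0.000106), where the median of all genes was 1.24. Transcripts of the cytokine itself, Ifng, were at 0 in all 3 GEMM microglia libraries and at 0.986, 1.37 and 0.0748 CPM in GL261 microglia. Of the 7 T cell markers in the table, 3 averaged over 1 CPM in GL261 microglia and 1 in GEMM microglia, and Cd3e, a chain of the T cell receptor complex, was at 0.985, 0.221 and 0.486 CPM against 0.197, 1.83 and 0.487. NK cell markers summed to 14.3 to 20.5 CPM of the total count against 3.94 to 13.9, but they did not move together. Of the 8, 2 were called higher and 1 lower under TMM. Klrb1c, an NK cell receptor among them, was at 0.214, 0.707 and 0.636 CPM in GL261 and 3.84, 2.59 and 4.34 in GEMM microglia. The part of T cells and NK cells in the result was not tested.

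The 100 bases before the annotated start of 8 of these GTPase genes are shown because most of them hold the core letters of interferon-responsive elements. They are from RefSeq (GRCm38.p6), 5′ to 3′ on the gene's strand, and capitals mark GAAANNGAA, the core of the interferon-stimulated response element, on either strand, or TTCNNNGAA, the core of the gamma-activated site, a motif added after the first search.
Tgtp1: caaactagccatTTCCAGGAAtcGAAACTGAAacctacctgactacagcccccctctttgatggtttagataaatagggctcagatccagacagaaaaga
Tgtp2: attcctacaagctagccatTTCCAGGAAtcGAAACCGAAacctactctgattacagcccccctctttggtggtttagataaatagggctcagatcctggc
Igtp: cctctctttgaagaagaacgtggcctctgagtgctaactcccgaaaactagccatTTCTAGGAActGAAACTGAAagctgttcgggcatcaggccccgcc
Irgm1: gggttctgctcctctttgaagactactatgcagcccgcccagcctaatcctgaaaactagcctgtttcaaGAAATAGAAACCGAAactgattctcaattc
Irgm2: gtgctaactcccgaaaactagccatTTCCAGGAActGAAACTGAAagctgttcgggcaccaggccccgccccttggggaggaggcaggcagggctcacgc
Gbp2: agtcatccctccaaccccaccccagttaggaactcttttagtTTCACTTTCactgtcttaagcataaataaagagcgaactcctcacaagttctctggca
Gbp3: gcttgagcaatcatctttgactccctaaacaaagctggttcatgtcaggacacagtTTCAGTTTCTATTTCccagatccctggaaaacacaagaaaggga
Ifi47: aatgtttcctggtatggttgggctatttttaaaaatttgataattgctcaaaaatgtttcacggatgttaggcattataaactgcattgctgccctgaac

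The stretches of Tgtp1, Tgtp2 and Irgm1 lie on the minus strand at chr11:48992247-48992346, chr11:49064213-49064312 and chr11:48871421-48871520. Those of Ifi47, Igtp and Irgm2 lie on the plus strand at chr11:49076487-49076586, chr11:58199456-58199555 and chr11:58214877-58214976, so these 6 genes are on chromosome 11. Gbp3 and Gbp2 start on the plus strand of chromosome 3 after chr3:142559944-142560043 and chr3:142620563-142620662. In Tgtp1, Tgtp2, Igtp and Irgm2 the letters TTCNNNGAA start 11 bases before GAAANNGAA, and the stretch of Ifi47 holds neither motif. Over the 250 bases before the start, searched on both strands, GAAANNGAA occurred in 13 of the 18 interferon-gamma list members with a RefSeq window (72.2%) and in 1934 of 27025 windows of the same length over all genes (7.16%). It was present in 11 of the 12 members with a window that were called higher. TTCNNNGAA occurred in 7 of the 18 (38.9%) and in 1940 of all windows (7.18%). The other members could not be matched to a window and were not searched. A match describes letters, not bound sites.

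**Figure D3:**
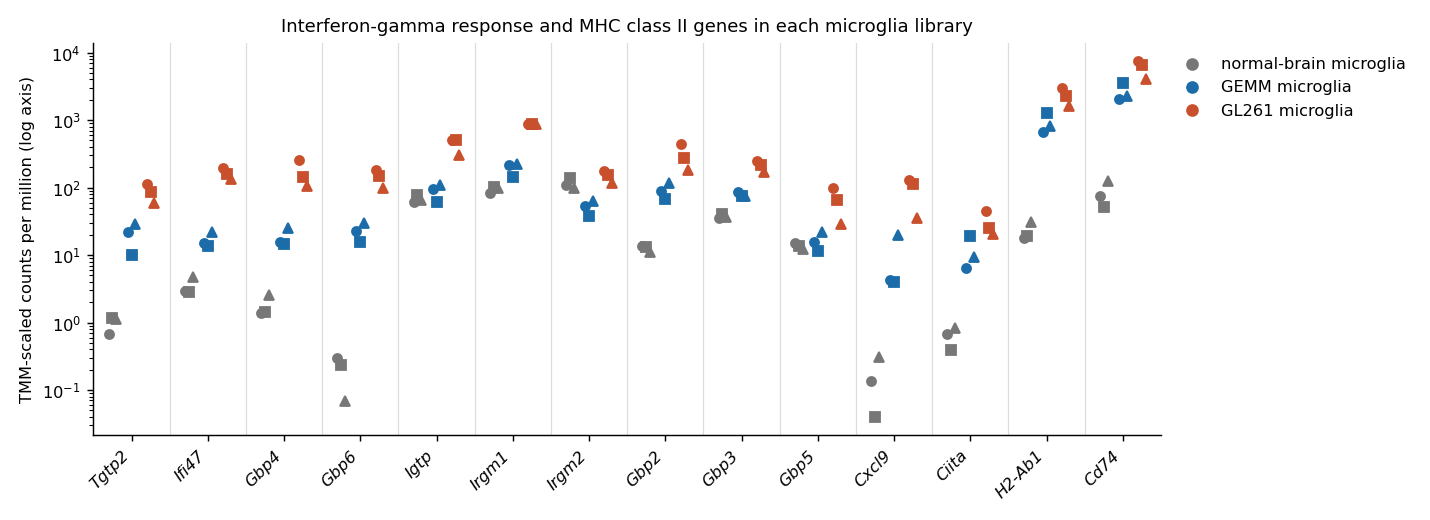
TMM-scaled CPM on a log axis of 14 interferon-gamma response and MHC class II genes in each library of normal, GEMM and GL261 microglia (colours); circles, squares and triangles are the libraries of a group in number order. For Irgm1 the GL261 microglia libraries sit at 876, 869 and 884 CPM and the GEMM microglia libraries at 219, 144 and 224 CPM.

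Some genes of antigen presentation were higher in GL261 microglia. Of 16 tested genes of MHC class II presentation, 6 were higher and 2 lower under TMM (9 and 0 under leukocyte scaling), the higher ones including the class II chains themselves. The list as a whole was not shifted above all genes tested. Its medians were 0.01 under TMM and 1.01 under leukocyte scaling, against 0.04 and 1.24 over all genes. H2-Ab1, a class II beta chain, was at 676, 1280.0 and 819.8 CPM in GEMM microglia and 3038, 2310.2 and 1635 in GL261 microglia (log2 difference 1.33 ± 0.34, adjusted p = 0.00619). Ciita, the master regulator of class II genes, was at 6.50, 19.1 and 9.26 CPM against 45.5, 25.3 and 20.5 (log2 difference 1.38 ± 0.40, adjusted p = 0.0128). Cd74, the invariant chain, differed by 1.24 ± 0.36 (adjusted p = 0.0135). Without GEMM library 68702 or BB30105 neither passed (adjusted p = 0.0684 and 0.0558 for Ciita, 0.0654 and 0.0539 for Cd74), nor did Ciita without GL261 library 80766 (0.0749). Cd40, a receptor through which T cells license antigen-presenting cells, was at 6.70, 11.1 and 13.7 CPM against 36.9, 23.9 and 21.7 (log2 difference 1.39 ± 0.26, adjusted p = 0.000616). For all 4 genes the libraries of the groups did not overlap, and levels in GL261 microglia stayed below those of GL261 BMDM, which for H2-Ab1 were 16797, 12008 and 6653 CPM. Ctss, the protease that trims the invariant chain, was 1 of the 2 lower genes (log2 difference -0.85 ± 0.20, adjusted p = 0.004) and was not called under leukocyte scaling (0.22).

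In MHC class I presentation, 8 of 22 genes were higher and 4 lower under TMM, and 21 higher and 0 lower under leukocyte scaling. Without library 80769 the TMM counts were 9 and 2. Nlrc5, the class I transactivator, was at 36.7, 28.1 and 39.5 CPM in GEMM microglia and 133, 119.9 and 60.8 in GL261 microglia (log2 difference 1.59 ± 0.30, adjusted p = 0.000625). The immunoproteasome subunit Psmb9 differed by 0.86 ± 0.15 (adjusted p = 0.000368), the proteasome activator Psme2 by 0.73 ± 0.11 (adjusted p = 8.72e-05) and the peptide editor Tapbpl by 1.11 ± 0.18 (adjusted p = 0.000181). B2m, the shared class I light chain, went the other way under TMM, from 8553, 6827 and 8810.0 to 6756, 6119 and 4177 CPM (adjusted p = 0.0434), and was 0.61 higher under leukocyte scaling (adjusted p = 0.00764). Its direction thus depends on the scaling. The TMM call of B2m was lost without library 68702, BB30105, 80767 or 80769 (adjusted p = 0.122, 0.135, 0.0601 and 0.0913 in turn). Of 33 genes of the type I interferon response, 9 were higher and 0 lower under TMM, a share of higher genes closer to the 18.8% over all genes than in the interferon-gamma list, and 32 were higher under leukocyte scaling, where the median of 1.61 compares with 1.24. Stat2, a subunit of the type I interferon factor ISGF3, was at 70.0, 68.5 and 74.5 CPM against 224, 217 and 95.1 (log2 difference 1.33 ± 0.28, adjusted p = 0.00146). The ubiquitin ligase Herc6 was at 91.1, 53.6 and 104 against 203, 202 and 178 (log2 difference 1.23 ± 0.28, adjusted p = 0.00265). GAAANNGAA occurred in 12 of 22 type I list members with a window (54.5%), and in 3 of the 7 of these that were called higher.

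Lipid-handling genes were among the largest decreases. By the rule of largest differences, the genes lower in GL261 microglia were Expi, Lpl, Gria2, Apoc1, Fcrls, S1pr1, Serpine2, Slc40a1, Fabp7, Cdo1, Abcg1 and Apoe, chosen from 1786 eligible genes. Expi was at 18.6, 287 and 13.2 CPM in GEMM microglia and 0.557, 0.973 and 2.54 in GL261 microglia, with library BB30101 alone high. Lpl (chr8:68880555-68906932), lipoprotein lipase, was at 909, 757 and 287 CPM in GEMM microglia and 29.7, 31.4 and 34.1 in GL261 microglia, 20.5-fold lower (log2 difference -4.36 ± 0.57, adjusted p = 3.2e-05), against 21.0 ± 3.30 (SD, n = 3) in normal microglia. The GL261 libraries were close to normal microglia, whereas the lowest GEMM library was several times higher. Apoe (chr7:19696244-19701310), the main brain apolipoprotein, was at 39404, 30337 and 12853 CPM against 2785, 5893 and 3719, 6.66-fold lower (log2 difference -2.74 ± 0.46, adjusted p = 0.000265). Apoc1 in the same gene cluster was at 122, 84.8 and 16.2 CPM against 2.14, 9.02 and 2.10 (log2 difference -4.08 ± 0.80, adjusted p = 0.000845). Abcg1 (chr17:31057694-31117984), the cholesterol exporter, was at 417, 245 and 313 CPM against 65.9, 48.1 and 28.2 (log2 difference -2.78 ± 0.35, adjusted p = 2.61e-05). Lipa, the lysosomal lipase that frees cholesterol from its esters, was at 485, 414 and 375 CPM against 106, 98.3 and 70.7 (log2 difference -2.21 ± 0.27, adjusted p = 1.92e-05). For Lpl, Apoe, Apoc1 and Abcg1 the rule that named them required that no GL261 value reach a GEMM value. The same held for Lipa, as for 22.1% of all genes tested in the lower direction. All 5 were also called lower under leukocyte scaling, with differences of -3.14, -1.55, -3.02, -1.72 and -1.09 on the log2 scale.

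In the whole list of lipid efflux and storage, 10 of 20 genes were lower and 1 higher under TMM, and 6 lower and 6 higher under leukocyte scaling, with medians of -1.08 and 0.16. Abca1, the partner of Abcg1 in efflux, was at 1024, 655 and 656 CPM against 261, 286 and 115 (log2 difference -1.82 ± 0.40, adjusted p = 0.00196) and missed the threshold under leukocyte scaling (-0.78, adjusted p = 0.0517). Soat1, which esterifies cholesterol for storage, differed by -1.04 ± 0.15 under TMM (adjusted p = 9.46e-05) but 0.21 and not called under leukocyte scaling. Fabp7, a brain fatty acid-binding protein, was at 58.1, 95.5 and 57.4 CPM against 4.63, 13.4 and 11.6 (log2 difference -2.83 ± 0.42, adjusted p = 9.01e-05).

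Many genes of cholesterol synthesis and uptake were higher. Of 23 tested, 11 were higher and 1 lower under TMM and 23 higher and 0 lower under leukocyte scaling, with medians of 0.56 and 1.81. Without library 80769 the TMM counts were 9 higher and 1 lower. Srebf2, which encodes SREBP2, was at 9.75, 13.6 and 12.8 CPM in GEMM microglia and 37.2, 48.0 and 54.0 in GL261 microglia (log2 difference 1.94 ± 0.23, adjusted p = 1.5e-05). Sqle, squalene epoxidase, was at 8.57, 15.4 and 11.7 CPM against 39.9, 66.6 and 82.6 (log2 difference 2.40 ± 0.37, adjusted p = 0.000127). In both genes the highest value was in library 80769, the library with the lowest leukocyte and highest GL261-restricted level. Hmgcs1, an early enzyme of the synthesis, differed by -0.31 ± 0.18 (adjusted p = 0.193). TCACNCCAC, the core of the sterol regulatory element and a motif added after the first search, occurred in 1 of 16 list members with a window (6.25%). It occurred in 280 of all windows (1.04%), and in 0 of the 5 members with a window that were called higher. The share in the list thus rests on 1 gene.

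Homeostatic microglial genes were lower in GL261 microglia. Of 30 tested, 21 were lower and 1 higher under TMM, and 8 lower and 2 higher under leukocyte scaling, with medians of -1.31 and -0.32. Without library 80769, 15 were lower and 0 higher under TMM, and with the 6 compared libraries fitted alone 14 were lower and 0 higher. Fcrls, an Fc receptor-like marker of microglia, was at 3376, 2203 and 3152 CPM in GEMM microglia and 336, 315 and 105 in GL261 microglia, 11.5-fold lower (log2 difference -3.53 ± 0.54, adjusted p = 0.000118). Gpr34, a lysophosphatidylserine receptor, was at 2017, 877 and 1566 CPM against 350.0, 262 and 71.1 (log2 difference -2.71 ± 0.47, adjusted p = 0.000346). Cx3cr1, the receptor of the neuronal chemokine fractalkine, was at 2519, 1560.3 and 2265 against 595, 484 and 104 (log2 difference -2.42 ± 0.60, adjusted p = 0.00506). P2ry12 was 3.85-fold lower (log2 difference -1.94 ± 0.44, adjusted p = 0.00265). These 4 genes stayed lower under leukocyte scaling, with log2 differences of -2.53, -1.75, -1.50 and -0.98, but with library 80769 left out as well the leukocyte-scaled calls of Cx3cr1 and P2ry12 were lost (adjusted p = 0.0608 and 0.0943). Siglech, a sialic acid-binding receptor, was at 849, 612 and 1200.5 CPM against 482, 354 and 71.6 (log2 difference -1.55 ± 0.56, adjusted p = 0.0406), a call lost under leukocyte scaling (-0.65, adjusted p = 0.227) and, under TMM, without library 68702, BB30105, 80767 or 80769 (adjusted p = 0.075, 0.134, 0.068 and 0.1 in turn). Csf1r, the receptor on which microglia depend, was at 5799.7, 4464 and 6944 CPM against 4259.8, 3120.3 and 1345 (log2 difference -0.98 ± 0.29, adjusted p = 0.0149), a difference of 0.02 under leukocyte scaling, and the sort marker Itgam (CD11b) differed by -1.13 ± 0.39 (adjusted p = 0.0319) and by -0.18 in turn. Under TMM the call of Csf1r was lost without library BB30105 (adjusted p = 0.0669), and that of Itgam without library 68702, BB30105, 80767 or 80769 (adjusted p = 0.11, 0.0784, 0.053 and 0.0626 in turn). Fitted on the 6 compared libraries alone, Csf1r, Itgam and Siglech missed the threshold (adjusted p = 0.135, 0.146 and 0.115). Of 16 microglial transcription factors, 5 were lower under TMM and 0 under leukocyte scaling, where 5 were higher. Klf2, a factor that holds myeloid cells in a resting state, was at 299, 314 and 418 CPM against 177, 161 and 72.6 (log2 difference -1.33 ± 0.27, adjusted p = 0.00124).

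**Figure D4:**
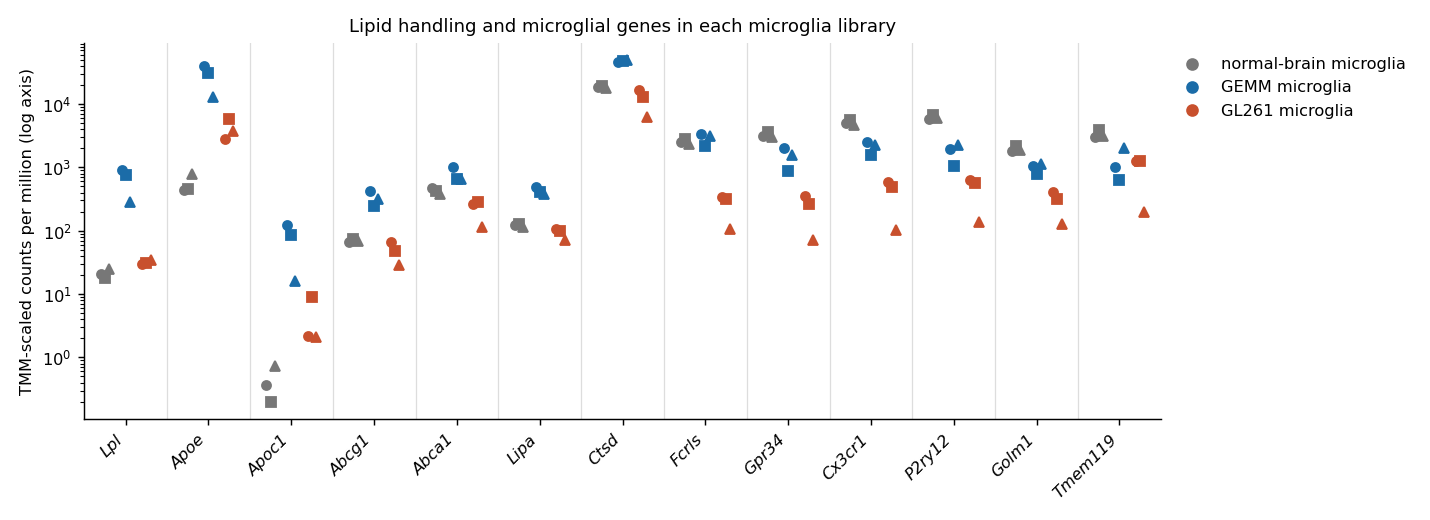
TMM-scaled CPM on a log axis of 13 lipid-handling, lysosomal and microglial genes in each library of normal, GEMM and GL261 microglia (colours); circles, squares and triangles are the libraries of a group in number order. For Lpl the GL261 microglia libraries, at 29.7, 31.4 and 34.1 CPM, lie near the 21.0 ± 3.30 CPM of normal microglia (mean ± SD, n = 3), and for Fcrls they lie at 336, 315 and 105 CPM, below all GEMM microglia libraries.

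The disease-associated microglia list, genes that rise in microglia around plaques and in other pathology, counted 17 lower and 1 higher of 28 under TMM and 5 lower and 5 higher under leukocyte scaling, with medians of -1.18 and 0.07. Trem2, a lipid-sensing receptor at the head of this program, was at 864, 823 and 923 CPM in GEMM microglia and 343, 349 and 211 in GL261 microglia (log2 difference -1.53 ± 0.24, adjusted p = 0.000161). Its adaptor Tyrobp differed by -1.25 ± 0.17 (adjusted p = 3.39e-05). Under leukocyte scaling neither was called (-0.43 and -0.15). Ank, a membrane transporter of the list, was at 196, 84.3 and 81.6 CPM against 19.8, 18.0 and 28.8 (log2 difference -2.44 ± 0.35, adjusted p = 7.26e-05) and stayed lower under leukocyte scaling (-1.11). Axl, a receptor for dying cells, and Spp1, osteopontin, did not pass the test under TMM (log2 differences -0.06 and -1.13). Gpnmb, a lysosome-associated glycoprotein, was the member called higher, at 159, 222 and 56.3 CPM in GEMM microglia and 1061, 1461 and 2447 in GL261 microglia, 11.3-fold (log2 difference 3.50 ± 0.57, adjusted p = 0.00019). Its values followed the order of the GL261-restricted genes over the 3 GL261 libraries, and it was at 0.902 ± 0.298 CPM in normal microglia.

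Cathepsins and other lysosomal genes were mostly lower under TMM: 24 of 29 were lower and 1 higher, whereas under leukocyte scaling 3 were lower and 4 higher, with a median of 0.11 in place of -1.10. Ctsd, cathepsin D, was at 46579, 47495 and 49888 CPM in GEMM microglia and 16687, 12808 and 6308 in GL261 microglia (log2 difference -2.01 ± 0.34, adjusted p = 0.000306) and was lower under leukocyte scaling too (-1.0), as was Lipa. Ctsa, Ctsh and the glucuronidase Gusb differed by -1.26, -1.21 and -1.35 under TMM (adjusted p = 2.62e-05, 2.68e-05 and 2.62e-05) and by -0.13, -0.08 and -0.26, none called, under leukocyte scaling.

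Genes of innate sensing were lower under TMM. Of 22 genes for Toll-like receptors and their partners, 14 were lower and 0 higher under TMM, and 2 lower and 6 higher under leukocyte scaling. Cd14, the co-receptor for bacterial lipopolysaccharide, was at 1462, 1507 and 1578 CPM in GEMM microglia and 584, 670.1 and 236 in GL261 microglia (log2 difference -1.61 ± 0.30, adjusted p = 0.000596). Ly86, the partner of the TLR4 homologue RP105, was at 3377, 2431 and 2967 against 1279.8, 958 and 491 (log2 difference -1.69 ± 0.26, adjusted p = 0.000126). Both stayed lower under leukocyte scaling (-0.60 and -0.66), but with library 80769 left out as well the leukocyte-scaled call of Cd14 was lost (-0.48, adjusted p = 0.0646). Of 23 inflammatory cytokines and feedback genes, 10 were lower and 0 higher under TMM, and 1 lower and 2 higher under leukocyte scaling. Without library 80769, 6 were lower and 0 higher under TMM. Tnfaip3, the brake A20 on NF-kappaB, was at 1021, 815 and 1131 CPM against 432, 373 and 182 (log2 difference -1.59 ± 0.26, adjusted p = 0.000193) and was the member still lower under leukocyte scaling (-0.55). Il1b, the fever cytokine interleukin-1 beta, was at 1658, 1915 and 2451 CPM against 979.5, 826 and 191 (log2 difference -1.59 ± 0.52, adjusted p = 0.0245), a call lost without library BB30105 or 80769 (adjusted p = 0.0742 and 0.0641 in turn). Tnf did not pass the test (-1.08 ± 0.63, adjusted p = 0.198). Among heme and iron genes 10 of 20 were lower and 2 higher under TMM, with 0 lower and 5 higher under leukocyte scaling and 9 and 1 under TMM without library 80769. Hmox1, the heme-degrading oxygenase, was at 827, 1459 and 939 CPM against 212, 348 and 333 (log2 difference -1.85 ± 0.33, adjusted p = 0.000451). Complement genes differed in both directions. The central component C1qa was at 3418, 2995 and 4103 CPM against 2457, 2252 and 1363 (adjusted p = 0.0233) and differed by 0.30 under leukocyte scaling. Its TMM call was lost without library 68702, BB30105 or 80769 (adjusted p = 0.0508, 0.0935 and 0.0531 in turn). C1ra, a protease of the C1 complex, was instead higher, at 6.35, 5.45 and 8.50 CPM in GEMM and 34.2, 24.5 and 34.8 in GL261 microglia (log2 difference 2.21 ± 0.23, adjusted p = 4.85e-06). The C1 inhibitor Serping1 was also higher, at 0.345, 0.408 and 1.64 CPM in GEMM and 36.8, 29.0 and 25.6 in GL261 microglia (log2 difference 5.26 ± 0.67, adjusted p = 2.62e-05). Over the list, 6 of 19 were higher and 8 lower under TMM and 9 and 0 under leukocyte scaling. Without library 80769 the TMM counts were 6 and 5. Of 25 phagocytic and scavenger receptors, 9 were lower and 2 higher under TMM (1 and 8 under leukocyte scaling), and Pros1, a bridging ligand to dying cells, was lower on both scales (-1.64 ± 0.23, adjusted p = 5.97e-05, and -0.57).

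The 12 genes with the largest increases were Pet2, Nxf3, Lect1, Osr2, Xlr3c, Prph, Krt8, C1s, Tex19.1, Zfp385b, Dnajc22 and Apol9a, from 1322 eligible genes, and all 12 belong to the 33 genes restricted to GL261 libraries. Krt8, an epithelial keratin, was at 0.295, 0.408 and 0.0443 CPM in GEMM microglia and 127, 246 and 440.4 in GL261 microglia (log2 difference 9.96 ± 0.94, adjusted p = 2.08e-06), and at 22.5, 195 and 48.6 CPM in GL261 BMDM. Pet2, plasmacytoma expressed transcript 2, was at 27.6, 41.6 and 98.9 CPM in GL261 microglia and 0 in all 3 GEMM microglia libraries, and Lect1, a cartilage protein, was at 72.8, 79.8 and 123 CPM against 0.0985, 0.0291 and 0. In GL261 microglia library 80769 was the highest for Krt8, Pet2 and Lect1. Timp1, an inhibitor of matrix proteases, was at 0.689, 1.20 and 1.02 CPM against 36.6, 47.9 and 131 (log2 difference 6.19 ± 0.61, adjusted p = 2.94e-06). Vim, the intermediate filament vimentin, was at 32.1, 160.2 and 57.7 against 242, 345 and 748 (log2 difference 2.42 ± 0.54, adjusted p = 0.00243). S100a6, a calcium-binding protein higher in monocyte-derived cells than in microglia, was at 3.10, 10.9 and 1.37 CPM against 54.5, 108 and 172 (log2 difference 4.41 ± 0.67, adjusted p = 0.000105). Ahnak, a scaffold protein of the same list, was at 1.53, 3.67 and 1.02 against 30.1, 59.7 and 171 (log2 difference 5.35 ± 1.03, adjusted p = 0.000753). The summed level of the 33 restricted genes was highest in library 80769, and so were Timp1, Vim, S100a6 and Ahnak. The part of other cells' RNA in these 4 genes was not tested. Of 28 genes of monocytes and monocyte-derived macrophages, 11 were higher and 3 lower under TMM, against 6 and 4 without library 80769. Under leukocyte scaling 19 were higher and 1 lower. Ifitm6, a monocyte gene, was lower under TMM (-2.79 ± 0.59, adjusted p = 0.00165).

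Some genes of alternative activation were high in a single GL261 library. Chi3l3 (Ym1), a chitinase-like protein of alternatively activated macrophages, was at 0.0428, 1.24 and 4421 CPM in GL261 microglia and 0.788, 11.3 and 2.21 in GEMM microglia, and its call (adjusted p = 0.04) was lost without library 68702, BB30101, BB30105 or 80769 (adjusted p = 0.121, 0.0652, 0.117 and 0.38 in turn). Ccl8, a monocyte chemokine, was at 89.8, 37.9 and 3306 CPM in GL261 against 7.63, 39.6 and 31.9 in GEMM microglia (adjusted p = 0.0126), a call lost without library 68702 or 80769 (adjusted p = 0.0541 and 0.444 in turn). Mrc1, the mannose receptor CD206, was at 38.0, 12.8 and 471 CPM in GL261 against 14.7, 28.6 and 22.9 in GEMM microglia (adjusted p = 0.023), a call lost without library 68702, BB30105 or 80769 (adjusted p = 0.0817, 0.0618 and 0.911 in turn). Arg1, the arginine-degrading arginase, was at 74.8, 62.3 and 2789.9 CPM in GL261 microglia and 34.1, 1032 and 60.7 in GEMM microglia, with libraries 80769 and BB30101 high, and was not called (adjusted p = 0.477). In the BMDM library of animal 80769, Chi3l3 and Ccl8 were also the highest of the group, at 22717 and 17596 CPM. Over the list, 3 of 20 genes were higher and 4 lower under TMM, against 0 and 4 without library 80769. Under leukocyte scaling 7 were higher and 1 lower. Tgfb1, an immunosuppressive cytokine counted in this list and in 2 others, was at 149.5, 128 and 186 CPM in GEMM against 85.2, 60.7 and 44.8 in GL261 microglia (log2 difference -1.28 ± 0.20, adjusted p = 0.000162) and was not called under leukocyte scaling (-0.19), and the T cell chemokine Ccl17 was at 1.33, 16.9 and 1.68 against 0.214, 0.177 and 0.225, with library BB30101 high.

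In glycolysis and hypoxia, 6 of 35 genes were higher and 11 lower under TMM, and 18 higher and 0 lower under leukocyte scaling. Hif1a, the oxygen-regulated transcription factor, was at 949, 665 and 704 CPM in GEMM microglia and 312, 276 and 341 in GL261 microglia (log2 difference -1.32 ± 0.16, adjusted p = 2.13e-05). The mitophagy receptor Bnip3, which it induces, was at 263, 331 and 200.0 against 57.5, 97.5 and 96.3 (log2 difference -1.66 ± 0.32, adjusted p = 0.000868). Neither was called under leukocyte scaling (-0.07 and -0.41). ACGTG or GCGTG, the core of the hypoxia response element, occurred in 24 of 32 members with a window (75%) and in 10431 of all windows (38.6%). In the cell cycle list 6 of 35 genes were higher and 0 lower under TMM, with 1 and 1 without library 80769. Under leukocyte scaling 31 were higher and 0 lower, with medians of 0.49 under TMM and 1.82 under leukocyte scaling. Cdc20, an activator of mitotic exit, was higher in GL261 microglia, at 127, 119 and 226 CPM against 32.6, 35.1 and 41.2 in GEMM microglia (log2 difference 2.12 ± 0.51, adjusted p = 0.00402). Mki67, a marker of cycling cells, was not called under TMM (adjusted p = 0.448). It was called higher under leukocyte scaling (1.52, adjusted p = 0.00131), where the median of all genes was 1.24. Matrix and protease genes counted 9 higher and 4 lower of 32 under TMM, against 4 and 3 without library 80769. Under leukocyte scaling the matrix and protease counts were 21 and 0. Oxidative phosphorylation counted 3 higher and 9 lower of 32, against 29 and 0 under leukocyte scaling and 1 and 15 under TMM without library 80769. Immediate early genes, which respond to tissue dissociation, counted 1 higher and 8 lower of 30 under TMM and 13 higher and 0 lower under leukocyte scaling. Atf3, a stress-induced factor of this list, was at 1703, 1628 and 1833 CPM against 638, 796 and 339 (log2 difference -1.54 ± 0.29, adjusted p = 0.000582). Counts under TMM were 2 higher and 7 lower of 26 chemokine receptors and adhesion genes, 1 and 4 of 12 CC chemokines, and 1 and 3 of 12 CXC chemokines. They were 3 and 6 of 19 T cell checkpoint ligands, 3 and 3 of 24 growth factors, 3 and 5 of 21 TGF-beta pathway genes and 1 and 5 of 18 purinergic genes. Under leukocyte scaling the higher and lower counts of these 7 lists became 7 and 1, 3 and 1, 4 and 1, 8 and 0, 10 and 0, 6 and 0, and 6 and 1. Without library 80769 the TMM counts were 3 higher and 13 lower in glycolysis and hypoxia, 1 and 5 among immediate early genes, 1 and 5 in chemokine receptors and adhesion, and 0 and 4 in CC chemokines. They were 1 and 4 in CXC chemokines, 1 and 6 in checkpoint ligands, 1 and 5 in growth factors, 2 and 3 in the TGF-beta pathway and 1 and 3 in purinergic genes.

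Of the 270 genes lower under both scalings, 62 averaged 20 CPM or more in 1 of the 2 groups. The GL261 and GEMM libraries did not overlap for any of the 62, beside 22.1% of all genes tested in the lower direction. These genes were chosen by their calls in the same libraries, so the lack of overlap gives no support of its own. Beside the lipid and microglial genes above they included S1pr1, a sphingosine-1-phosphate receptor, at 167, 117 and 136 CPM in GEMM microglia and 19.7, 19.4 and 5.24 in GL261 microglia (log2 difference -3.25 ± 0.69, adjusted p = 0.0016). Serpine2, a protease inhibitor, was at 1802, 1007 and 1512 against 251, 248 and 37.6 (log2 difference -3.01 ± 0.72, adjusted p = 0.00398). In BMDM, 52 of the 62 were also called lower in GL261 tumours and 1 was called higher, beside 9.46% lower and 10.2% higher among all genes tested in BMDM. Slc40a1, the iron exporter ferroportin, was at 529, 463 and 406 CPM against 90.8, 64.1 and 37.8 (log2 difference -2.86 ± 0.88, adjusted p = 0.0178), just missed the leukocyte-scaled threshold (adjusted p = 0.0513) and lost its TMM call without library 80767 or 80769 (adjusted p = 0.0509 and 0.0737 in turn).

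Each tumour group was also set against normal microglia, and since both comparisons share the same 3 normal libraries their values are given side by side without an overlap. Under TMM, 3527 genes (23%) were higher and 3204 (20.9%) lower in GEMM microglia than in normal microglia, and 4701 (30.6%) were higher and 4178 (27.2%) lower in GL261 microglia. Under leukocyte scaling the counts were 2241 and 2403 in GEMM microglia and 8670 and 837 in GL261 microglia. Of the homeostatic list, 18 of 30 genes were below normal in GEMM microglia and 28 in GL261 microglia, with medians of -1.14 and -2.23 (under leukocyte scaling 22 and 22, with medians of -1.25 and -1.34). Of the interferon-gamma list, 17 and 20 of 25 were above normal. Lpl was 4.95 above normal on the log2 scale in GEMM microglia (adjusted p = 4.07e-06) and 0.59 in GL261 microglia (adjusted p = 0.329), and Abcg1 2.24 and -0.54 (adjusted p = 5.54e-05 and 0.175). Apoe was above its 556 ± 196 CPM in normal microglia (SD, n = 3) in both models, by 5.63 in GEMM and 2.89 in GL261 microglia (adjusted p = 3.43e-07 and 4.33e-05). Fcrls differed from normal by 0.18 in GEMM microglia (adjusted p = 0.793) and by -3.35 in GL261 microglia (adjusted p = 4.24e-05). Irgm2 went below normal in GEMM microglia (-1.18, adjusted p = 0.00552) and did not pass the test in GL261 microglia (0.37, adjusted p = 0.326). Genes higher than normal in both included Cd74, the class II invariant chain, at 84.6 ± 38.4 CPM in normal, 2037, 3485 and 2250.4 in GEMM and 7626, 6616 and 4091 in GL261 microglia.

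The same model comparison was made in BMDM, sorted from tumours of the same numbers, with 1573 genes (10.2%) higher and 1454 (9.46%) lower in GL261 tumours under TMM, and 2890 and 452 under leukocyte scaling. In the interferon-gamma list 15 of 25 genes were higher in GL261 BMDM, with a median of 1.18. In the homeostatic list 18 were lower (-1.34) and in the lipid list 9 were lower (-0.61). In the class II list 0 were higher and 2 lower in BMDM, and in the Toll-like receptor list 1 higher and 2 lower. The interaction test described next called 1 higher and 0 lower of the 16 class II genes and 0 higher and 1 lower of the 22 Toll-like receptor genes. Whether the 2 lineages differed was tested by an interaction, the model difference in microglia minus that in BMDM, which called 157 genes (1.02%) higher and 93 (0.605%) lower under TMM, and 241 and 10 under leukocyte scaling. Fitted on the 12 tumour libraries alone, it called 14 and 7. With 1 library left out it called 65 to 219 and 34 to 181, the fewest without GEMM microglia 68702 and the most without GL261 microglia 80766. In BMDM alone the lower genes numbered 914 without GL261 library 80767. Lpl, Apoe, Abcg1 and Fcrls were lower in GL261 BMDM too (log2 differences -2.73, -1.53, -1.97 and -2.85) and their interactions did not pass the test (adjusted p = 0.28, 0.366, 0.441 and 0.702).

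The genes named for the interaction follow. Lrrk2, the kinase linked to Parkinson's disease, was at 1.62, 1.72 and 1.06 CPM in GEMM microglia and 11.1, 7.30 and 18.3 in GL261 microglia, but at 42.7, 29.1 and 31.1 CPM in GEMM BMDM and 12.3, 11.5 and 13.2 in GL261 BMDM, so it was higher in GL261 microglia and lower in GL261 BMDM (interaction 4.52 ± 0.41, adjusted p = 3.64e-05). Tgtp1 alone had an interaction of 4.60 ± 0.55, adjusted p = 0.000553, a value that is uncertain because of its near-identical copy Tgtp2. The 2 copies summed to 44.4, 29.4 and 53.1 CPM in GEMM BMDM and to 147, 113 and 51.4 in GL261 BMDM, where 1 GL261 library lay below a GEMM library, and the interaction of the sum was not tested. Ifi47 also passed (interaction 2.52 ± 0.42, adjusted p = 0.00647), and was at 162, 92.4 and 131 CPM in GEMM BMDM and 302, 236 and 109.6 in GL261 BMDM. Ciita differed as well (interaction 2.33 ± 0.56, adjusted p = 0.0428), and did not pass the test in BMDM, at 166, 307 and 265 against 204, 89.2 and 89.8 CPM (-0.95 ± 0.39, adjusted p = 0.0952). The 3 interferon genes kept these calls under leukocyte scaling (adjusted p = 0.000174, 0.000218 and 0.0159). Srebf2 (interaction 1.66 ± 0.32, adjusted p = 0.0139) and S100a6 (interaction 4.55 ± 0.86, adjusted p = 0.0129) were at 49.6, 48.0 and 65.7 and 41.2, 80.5 and 144 CPM in GL261 BMDM and at 29.3, 52.8 and 53.0 and 54.6, 136 and 101 in GEMM BMDM. Siglech was -5.22 in BMDM, from 49.1, 51.0 and 182 to 1.97, 2.22 and 3.35 CPM, against -1.55 in microglia (interaction 3.67 ± 0.83, adjusted p = 0.0331). Blocked by animal number (12 tumour libraries), the Siglech call was lost (adjusted p = 0.114), and leaving out 1 library lost it in 8 of 12 fits, all but those without GL261 microglia 80769, GEMM BMDM 68702 or BB30101 and GL261 BMDM 80769 (adjusted p 0.0509 to 0.0893). The Ciita call was likewise lost in 8 of 12, all but those without GL261 microglia 80769, GEMM microglia BB30101, GEMM BMDM 68702 and GL261 BMDM 80766 (adjusted p 0.0588 to 0.122). Fitted on the 12 tumour libraries alone, the interactions of Ifi47, Ciita, Srebf2, S100a6 and Siglech missed the threshold (adjusted p = 0.0778, 0.17, 0.0863, 0.0983 and 0.155). Srebf2 and S100a6 also missed it under leukocyte scaling without library 80769 (adjusted p = 0.0618 and 0.065).

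In the lower direction, Sgk1, a kinase induced by glucocorticoids and cell stress, was at 1539.9, 1038 and 1270.2 CPM in GEMM microglia and 461, 434 and 279 in GL261 microglia, and at 791, 672 and 749 CPM in GEMM BMDM and 1321, 1240.2 and 940.2 in GL261 BMDM. It was lower in GL261 microglia (log2 difference -1.71 ± 0.22, adjusted p = 2.77e-05) and higher in GL261 BMDM (0.66 ± 0.22, adjusted p = 0.0379), with an interaction of -2.38 ± 0.31, adjusted p = 0.0013 under TMM and an adjusted p of 0.00167 under leukocyte scaling. Cd14 was lower in GL261 microglia and did not pass the test in BMDM (0.29 ± 0.29, adjusted p = 0.523), at 1118, 1079 and 1424 and 1659, 1587 and 1179.6 CPM, and the interaction passed (interaction -1.90 ± 0.42, adjusted p = 0.0286). Fcgr3, an activating receptor for antibodies, was at 2288, 1966 and 2013 CPM in GEMM and 1189, 1156 and 791 in GL261 microglia and at 1155, 1111 and 859 and 1522, 1269.5 and 1586 CPM in the matching BMDM (interaction -1.49 ± 0.23, adjusted p = 0.00439), a call lost under leukocyte scaling (adjusted p = 0.109). Fcer1g, the signalling chain of Fc receptors, also passed the interaction test under TMM alone (interaction -1.04 ± 0.20, adjusted p = 0.0139, and adjusted p = 0.286 under leukocyte scaling). With the animal number as a block Fcer1g did not pass (adjusted p = 0.0605), and the Cd14 call was lost without GEMM microglia 68702 or BB30105, GEMM BMDM BB30101, or GL261 BMDM 80766 or 80767 (adjusted p 0.051 to 0.0778). On the 12 tumour libraries alone Cd14, Fcgr3 and Fcer1g missed the threshold (adjusted p = 0.121, 0.0778 and 0.121). Leukocyte levels fell in GL261 BMDM as well, to 413, 399 and 273 CPM of the total count from 475, 429.6 and 489, against the values given above for microglia, and the part of these levels in the interaction calls was not tested.

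**Figure D5:**
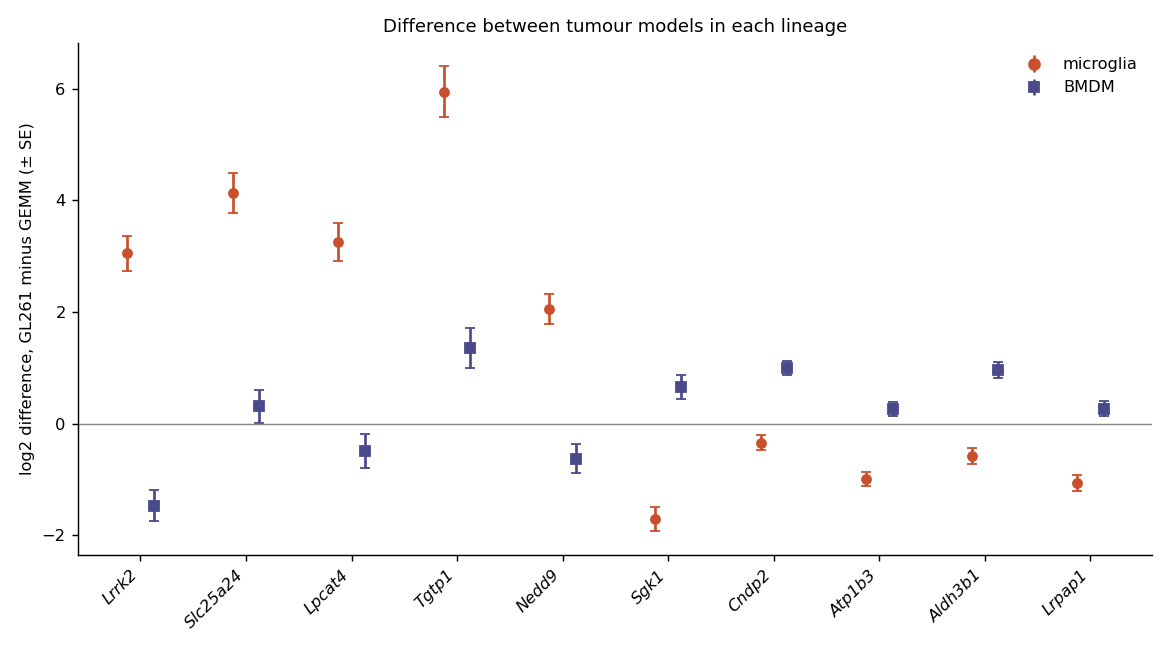
Log2 difference between GL261 and GEMM tumours in microglia and in BMDM, with standard errors (n = 3 libraries a group), for the 10 genes with the smallest interaction p in the 2 directions (among genes of 20 CPM or more); circles are microglia and squares BMDM. Lrrk2 stands at 3.05 in microglia and -1.47 in BMDM, and Sgk1 at -1.71 and 0.66.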

How the data were processed

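RNA-seq gene counts of 20 libraries in 6 groups were analysed. Per the labels' protocols, polyadenylated RNA of sorted cells was taken up in TriZOL LS and amplified with a Smart-Seq kit. Tools listed in the submitters' processing notes are STAR 2.5.0e, CASAVA 1.8, DESeq2 and HTSeq, with mm10 as the genome build. No source used here gives the annotation or strand setting. The values deposited by the authors are raw counts per gene symbol, whole numbers with no normalization. The table holds 23329 symbols, of which 21798 had a count in any library and none is a summary row.

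From these counts the following was computed. The filterByExpr function (minimum count 10, minimum total 15) retained 15363 genes, and library sizes were scaled by TMM. Each comparison was a contrast of edgeR's quasi-likelihood test (edgeR 4.0.16 in R 4.3.3, robust, 1 mean per group over the 20 libraries), with p-values adjusted by Benjamini-Hochberg over all tested genes and called under 0.05. Errors of log2 differences are standard errors, computed as the difference over the square root of F. The test was checked on simulated data. Levels of single genes are TMM-scaled CPM. Marker sums and leukocyte levels are CPM of the total count. Leukocyte scaling, which sets library sizes by the geometric mean count of 16 pan-leukocyte genes, was added after the data were seen, as was leaving out library 80769 under it.

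The comparison, its members and the gene lists were chosen with earlier results of these data known. The lists comprise 29 pathway lists (628 genes, 619 tested) and 16 marker lists. Of their symbols 7 were matched by an older name and 8 were not matched. Named genes are the 12 largest differences per direction among calls with at least 20 CPM in a group and no overlap, up to 4 genes of smallest p per list, the 5 smallest interaction p per direction, and 12 genes of the sort and label. Predicted genes were passed over, and some genes that the rule names are not reported here. Named outside this rule, after their values were seen, were Abca1, Arg1, Axl, B2m, C1qa, Cd274, Cd74, Chi3l3, Csf1r, Ctsd, Ddx3y, Gbp2, Gbp3, Gbp4, Gpnmb, Hmgcs1, Ifng, Ifngr1, Ifngr2, Igtp, Il1b, Irf1, Irgm2, Mki67, Spp1, Tgtp2, Tnf and Vim. So were the marker genes Sox10, Pdgfra, Cd3e, Lck and Klrb1c, and the further interaction genes. Promoter sequences are those of RefSeq for GRCm38.p6.

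No library pair of a tumour group was a duplicate (lowest chi-square per degree of freedom 33.7). Nothing says that libraries of a group came from separate litters or experiments, so p-values measure the spread between these libraries. Microglia and BMDM libraries of a model share numbers in the labels. Deviations of same-numbered libraries from the group means correlated at 0.20 to 0.39 over 6 pairs, against -0.34 to 0.08 for other numbers, and blocking by animal was tried as an alternative for the interaction. The interaction values reported are unpaired.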

Additional observations from a re-analysis of the deposited data

Results flagged for a closer look

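Each of the following genes differed between the models by another amount in microglia than in BMDM, by the interaction test of edgeR, where a positive value means that the difference of GL261 minus GEMM was higher in microglia. The model difference itself turned direction between the lineages, with no overlap in either, for some of them.

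Slc25a24, a mitochondrial carrier, was at 1.18, 2.83 and 1.37 CPM in GEMM and 19.5, 32.0 and 45.7 in GL261 microglia, and 18.4, 25.3 and 18.5 in GEMM and 17.4, 28.6 and 31.3 in GL261 BMDM (interaction 3.82 ± 0.46, adjusted p = 0.000553). Lpcat4, a lysophospholipid acyltransferase, was at 1.28, 2.19 and 1.73 CPM in GEMM and 10.03, 16.9 and 23.6 in GL261 microglia, and 18.9, 21.7 and 33.6 in GEMM and 15.6, 25.1 and 11.9 in GL261 BMDM (3.76 ± 0.45, adjusted p = 0.000553). Both were lowest in GEMM microglia among the 4 tumour groups, and every GL261 microglia library lay above every GEMM one. Nedd9, a scaffold protein of cell adhesion, was at 19.1, 22.5 and 12.1 CPM in GEMM and 57.2, 56.5 and 110.2 in GL261 microglia, and 147, 113 and 95.4 in GEMM and 59.8, 83.1 and 86.8 in GL261 BMDM (2.69 ± 0.37, adjusted p = 0.00232), so the microglia groups were ordered one way without overlap and the BMDM groups the other.

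In the lower direction, Cndp2, a dipeptidase, was at 315, 343 and 308 CPM in GEMM and 288, 254 and 222 in GL261 microglia, and 287, 314 and 254 in GEMM and 588, 562 and 564 in GL261 BMDM (-1.34 ± 0.18, adjusted p = 0.00158). Atp1b3, a beta subunit of the sodium pump, was at 586, 490.1 and 513 CPM in GEMM and 297, 252 and 250.4 in GL261 microglia, and 406, 416 and 404 in GEMM and 503, 489 and 476 in GL261 BMDM (-1.25 ± 0.18, adjusted p = 0.00245). Aldh3b1, an aldehyde dehydrogenase, was at 43.6, 49.3 and 42.5 CPM in GEMM and 31.6, 26.1 and 33.1 in GL261 microglia, and 61.4, 60.8 and 42.3 in GEMM and 111, 98.0 and 110.1 in GL261 BMDM (-1.53 ± 0.22, adjusted p = 0.00248). Lrpap1, a chaperone of lipoprotein receptors, was at 446, 460.2 and 425 CPM in GEMM and 242, 212 and 185 in GL261 microglia, and 259, 249 and 221 in GEMM and 294, 279 and 306 in GL261 BMDM (-1.33 ± 0.19, adjusted p = 0.00255). Under TMM, for these 4 genes every GL261 library lay below every GEMM library in microglia and above every one in BMDM. Under leukocyte scaling the microglia difference of all 4 turned positive (0.81 for Cndp2, adjusted p = 0.00512, 0.19 for Atp1b3, 0.64 for Aldh3b1 and 0.09 for Lrpap1), and all 4 interactions missed the threshold (adjusted p = 0.181, 0.244, 0.194 and 0.175), whereas Slc25a24, Lpcat4 and Nedd9 passed it (0.00347, 0.000906 and 0.00609).

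Ctsa, a lysosomal carboxypeptidase, and Hif1a, the oxygen-regulated transcription factor, had interactions of -1.02 ± 0.23, adjusted p = 0.0286 and -1.0 ± 0.23, adjusted p = 0.0342, and neither passed with the animal number as a block (adjusted p = 0.0869 and 0.074) or under leukocyte scaling (adjusted p = 0.341 and 0.612). The Ctsa call was lost without GEMM microglia 68702 or BB30105, GEMM BMDM BB30101, or GL261 BMDM 80766 or 80769 (adjusted p 0.0504 to 0.0774). The Hif1a call was lost with any 1 of these left out, and also without GL261 microglia 80767 or GEMM BMDM 68702 (adjusted p 0.0513 to 0.106). The genes described before had interactions of 4.52 (Lrrk2), 4.60 (Tgtp1, uncertain because of its copy), 2.52 (Ifi47), 2.33 (Ciita), 1.66 (Srebf2), 4.55 (S100a6) and 3.67 (Siglech), and of -2.38 (Sgk1), -1.90 (Cd14), -1.49 (Fcgr3) and -1.04 (Fcer1g).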

How the results depend on the processing

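The microglia comparison kept its counts within 1.5 times under DESeq2 (3250 higher and 2727 lower), limma-voom (3212 and 2933), RLE factors (2932 and 2383), upper-quartile factors (2978 and 2312), no filter on low counts (2541 and 2217), a minimum count of 50 (2621 and 2184), and fits on 6, 9 or 12 libraries (2186 and 1713, 2793 and 2385, 2616 and 1906). Leukocyte scaling gave 10090 and 270, and 7537 and 272 without library 80769 as well. It also gave 2890 and 452 in BMDM, 241 and 10 for the interaction (170 and 20 without 80769), 2241 higher in GEMM than in normal microglia, and 8670 higher and 837 lower in GL261 than in normal microglia (983 lower without 80769). In the GL261 microglia comparisons this follows from its construction, which raises every gene of those libraries against TMM. The interaction counts were 435 and 373 under DESeq2, 181 and 162 under limma-voom, 113 and 43 with no filter, and 14 and 7 on the 12 tumour libraries, and the cause of these shifts was not tested.

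With 1 library left out, the microglia comparison called 1888 to 2922 genes higher, the lowest without 80769, and 1723 to 2456 lower. BMDM gave 1132 to 1440, the lowest without GEMM BMDM BB30101, and 914 to 1133, the lowest without GL261 BMDM 80767. The interaction gave 65 to 219 and 34 to 181, the lowest without GEMM microglia 68702 and the highest without GL261 microglia 80766. A count moved by over 1.5 times without GEMM microglia 68702 (65 and 34) or BB30105 (69 and 41), GL261 microglia 80766 (219 and 181), 80767 (123 and 49) or 80769 (144 and 179), GEMM BMDM 68702 (206 and 157), BB30101 (70 and 39) or BB30105 (71 and 84), and GL261 BMDM 80766 (69 and 48). GEMM against normal microglia gave 2922 to 3273 and 2483 to 2732, and GL261 against normal 3972 to 4581 and 3668 to 4017. No paired analysis of the microglia comparison was possible because its groups share no animal number. For the interaction, the fit with the animal number as a replicate block called 192 higher and 105 lower, and of the 20 genes given for it 16 kept their call.

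Under leukocyte scaling the sign of these log2 differences turned from negative to positive: Axl 1.13, B2m 0.61, Hmgcs1 0.95, Cndp2 0.81, Aldh3b1 0.64, C1qa 0.30, Ctss 0.22, Soat1 0.21, Atp1b3 0.19, Fcgr3 0.12, Ifngr1 0.12, Fcer1g 0.09, Lrpap1 0.09 and Csf1r 0.02. Without 80769 as well it did so for Axl 0.78, Cndp2 0.52, B2m 0.46, C1qa 0.21, Ctss 0.18, Ifngr1 0.16, Csf1r 0.14, Aldh3b1 0.11 and Itgam 0.06, and Chi3l3 went to -2.21, while under TMM it ranged from -3.02 (without 80769) to 9.92 (without BB30101). Of 127 values for single genes, 25 lost their call under leukocyte scaling with the same sign and 3 gained one. With edgeR fitted on the 6 compared libraries alone, 14 values lost their TMM call. They were B2m, C1qa, Csf1r, Ctss, Ifngr1, Il1b and Itgam (adjusted p = 0.205, 0.0844, 0.135, 0.086, 0.0776, 0.0769 and 0.146 in turn). The others were Ccl8, Chi3l3, Ciita, Cndp2, Ly6c2, Mrc1 and Siglech (adjusted p = 0.0594, 0.117, 0.0705, 0.166, 0.18, 0.112 and 0.115 in turn). With 3 libraries a group, a difference that missed the threshold was not detectable here, which does not show it to be absent.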
